A study of Mus musculus with 72 samples.

Results

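Livers of mice with cachexia-inducing C26 tumours were compared here with livers of mice with NC26 tumours, which leave body weight stable, each group set against PBS animals of its own cohort. Cachexia is a wasting of body mass in cancer, and the contrast asks which changes of the liver go with C26 cachexia beyond those that NC26 tumours without weight loss bring. C26 and NC26 are different tumours, so weight loss, tumour line and the stage at which livers were taken cannot be told apart. The libraries were chosen by their labels, and 16 of the 72 libraries of the study entered: whole liver nuclei of BALB/c mice from 4 C26 animals with cachexia, 4 PBS animals of the C26 cohort, 4 animals with NC26 tumours and 4 PBS animals of the NC26 cohort. The C26 livers were taken once an animal had lost more than 10% of its body weight, and the time of day was zeitgeber time 9 h. Every animal, PBS animals included, carried CAG-Sun1/sfGFP and Albumin-Cre, so that Cre made under the albumin promoter of hepatocytes turns on a fluorescent tag of the nuclear envelope. Nuclei bound through this tag are called hepatocyte nuclei here. The whole liver nuclei were not purified by the tag and hold those of every liver cell.

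Besides hepatocytes, a liver holds sinusoidal endothelium, the resident macrophages called Kupffer cells, stellate cells, bile duct cells and lymphocytes. Cytokines of the IL6 family act through receptor pairs and the transcription factor STAT3, and switch hepatocytes to making acute phase proteins. Interferons act through their own receptors and induce antiviral genes in most cell types. Resident macrophages and lymphocytes can divide within the liver, and dividing cells of any kind make the same replication and mitosis transcripts.

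Total counts of the 16 libraries ran from 13752533 to 29858116. Along the first principal component of log2 CPM (counts relative to the scaled size of the library), 40.8% of the variance, the C26 cachexia animals lay at 44.3 to 56.5 and the other 12 at -26.2 to -3.93. PBS animal 1 of the C26 cohort stood apart along the second (17.9% of the variance, 45.6 against 19.5 to 20.3 in the other PBS animals of its cohort), and 5 genes that collect reads resembling rRNA took 1.09% of its counts, against 5 to 7.33% in the other 3. The cohorts' library numbers formed separate ranges, so that tumour and cohort can be told apart only through each cohort's own PBS animals. The label of whole liver held: CPM were 2904 to 8230 for Alb, the albumin gene of hepatocytes, 486 to 789 for Stab2 of sinusoidal endothelium, 130.1 to 287 for Mrc1 of macrophages and 45.6 to 116 for Bank1 of B cells.

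The tested quantity throughout is the difference of effects, the log2 change of C26 cachexia animals against their PBS animals minus the log2 change of NC26 animals against theirs. A gene was called at an adjusted p under 0.05 in the quasi-likelihood F test of edgeR over all 13738 genes tested. Of these, 230 (1.67%) were called higher and 237 (1.73%) lower, 3.4% of genes in all, 154 and 200 of them by at least 2-fold. The C26 cachexia effect alone held 1627 higher (11.8%) and 1412 lower genes (10.3%), 22.1% in all, and the NC26 effect 97 higher and 3 lower (0.728%, of which 0.706% higher and 0.0218% lower). Without NC26 PBS animal 1 the NC26 effect held 24 higher genes and 0 lower. To give weight to cells other than hepatocytes, a set was defined by enrichment in PBS animals. It held 2147 genes at least 2-fold higher in whole liver than in hepatocyte nuclei (adjusted p under 0.05, edgeR). These were the 8 PBS animals of the C57BL/6N cohorts, none of which enters the BALB/c groups. Membership does not show which cells make the RNA in tumour-bearing animals. In this whole-liver-enriched set 51 genes were called higher and 52 lower, or 4.8% of the set, against 3.14% of the other 11591 genes. The median difference of the set was -0.14 on the log2 scale, and -0.03 over all genes tested. The count of lower set genes was 76 without C26 cachexia animal 1 and 23 without animal 4, and that of higher set genes 32 without C26 PBS animal 4. All 103 kept their sign without any single animal. They were called from these same animals, so the kept signs describe the calls and do not test them. Over all genes the counts were as low as 134 higher, without NC26 PBS animal 1, and 117 lower, without C26 cachexia animal 4. In bulk nuclei, fewer cells of a type and less RNA per cell cannot be told apart.

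**Figure D1:**
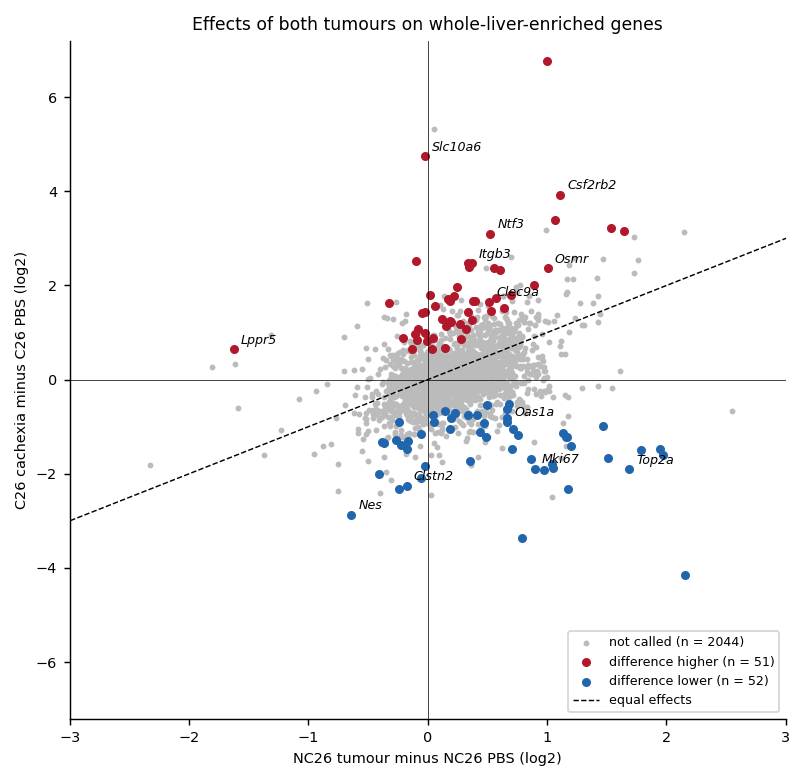
Each point is a gene of the whole-liver-enriched set, with its log2 change in NC26 animals on the horizontal axis and in C26 cachexia animals on the vertical axis, each against PBS animals of the same cohort. The 51 red genes lie above the dashed line of equal effects and the 52 blue genes below it. The genes not called are grey.

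The 51 higher genes had a median log2 change of 1.62 in C26 cachexia animals and of 0.24 in NC26 animals. The 52 lower genes had medians of -1.31 in C26 cachexia animals and 0.49 in NC26 animals. Each of the 2 effects is a component of the difference, so these medians describe it and do not test it. In 38 of the 52 lower genes the 2 effects had opposite signs, as in 13 of the 51 higher genes. Taken as ratios to the PBS mean, all 4 C26 cachexia animals lay above all 4 NC26 animals in each of the 51 higher genes (10.4% of all genes tested) and below them in each of the 52 lower genes (10.6%). The genes were called from these same animals, so this separation also describes the calls and does not test them. The PBS animals themselves differed between cohorts in 3 of the 51 and 14 of the 52 genes (10.9% of all genes tested, adjusted p under 0.05, edgeR), in all 17 in the direction opposite to the difference of effects. The PBS levels enter that difference with the opposite sign, so this direction follows from the contrast and is no separate result. The difference of these 17 genes holds the cohorts' starting levels. Over all genes tested, 5.46% were higher and 5.42% lower in C26 PBS than in NC26 PBS animals. In the whole-liver-enriched set these shares were 8.52% and 1.07%.

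Csf2rb2 (chromosome 15, 78282508 to 78305721, mm10), the mouse beta chain of the interleukin-3 receptor, had 26.8, 30.9, 35.7 and 31.4 CPM in C26 cachexia animals against 2.37, 1.65, 1.80 and 2.35 CPM in their PBS animals. It had 7.29, 3.75, 7.41 and 3.998 CPM in NC26 animals against 2.47, 2.38, 2.70 and 2.90 CPM in theirs. It rose in both tumour groups, without overlap with PBS in either, and by 2.82 more on the log2 scale in C26 cachexia (SE 0.34, adjusted p = 1.8e-05, edgeR). Csf2rb2 has a near-identical neighbour, Csf2rb (difference 0.77, adjusted p = 0.22, edgeR), so the split of reads between the copies is uncertain. Osmr (chromosome 15, 6813577 to 6874313), the receptor chain for oncostatin M of the IL6 family, stood at 110, 101, 130 and 116 CPM in C26 cachexia animals against 32.5, 19.0, 17.4 and 19.5 CPM in their PBS animals. In NC26 animals it stood at 30.8, 32.2, 41.4 and 25.8 CPM against 15.8, 15.5, 15.9 and 17.7 CPM in theirs. The lowest C26 cachexia animal was above the highest NC26 animal, and the difference of effects was 1.36 (SE 0.30, adjusted p = 0.0095, edgeR).

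Of 17 tested genes on a list named for IL6 family receptors and STAT3 feedback, 2 were called higher (Osmr and Il4ra) and none lower, with a median difference of 0.51. In the difference of effects 1.67% of all genes tested were called higher and 1.73% lower. In the C26 cachexia effect 10 of the 17 rose (11.8% of all genes tested), and in the NC26 effect 3 (0.706%). Il4ra, the interleukin-4 receptor alpha chain, is on that list without being a receptor of the IL6 family. It is not in the whole-liver-enriched set (log2 whole liver minus hepatocyte nuclei 0.20). Its PBS levels differed between cohorts, at 18.1, 22.8, 27.0 and 28.6 CPM in C26 PBS animals and 31.4, 38.2, 33.4 and 35.4 CPM in NC26 PBS animals (adjusted p = 0.021, edgeR), so that its difference of 0.88 (SE 0.20, adjusted p = 0.013) holds the cohorts' starting levels. In C26 cachexia and NC26 animals themselves it stood at 52.3, 51.8, 53.3 and 52.6 CPM and at 36.9, 37.99, 39.0 and 49.9 CPM.

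Itgb3 (chromosome 11, 104608000 to 104670471), the integrin beta-3 chain of platelet and endothelial receptors for fibrinogen and vitronectin, had 32.4, 28.8, 62.2 and 60.4 CPM in C26 cachexia animals and 8.09, 9.39, 6.38 and 9.15 CPM in their PBS animals. It had 9.62, 15.1, 15.8 and 10.5 CPM in NC26 animals and 10.8, 11.9, 7.73 and 9.04 CPM in theirs, with overlap between these groups. The difference was 2.11 (SE 0.41, adjusted p = 0.003, edgeR). Itga2b, its partner on platelets, was not called (0.14, SE 0.26, adjusted p = 0.85, edgeR), and 8 of the 10 genes of the megakaryocyte and platelet list had too few counts to be tested. Itga2, an integrin chain for collagen, stood at 2.86, 4.40, 9.70 and 8.55 CPM in C26 cachexia animals and between 0.783 and 1.64 CPM in the other 12 animals (difference 2.14, SE 0.57, adjusted p = 0.031, edgeR). Itga8, a further integrin chain of the set, was called lower (difference -0.96, adjusted p = 0.026, edgeR), and is named after its value was seen.

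C7 (chromosome 15, 4988762 to 5063773), a component of the membrane attack complex of complement, had 61.4, 65.0, 95.9 and 65.3 CPM in C26 cachexia animals and 15.7, 11.04, 13.2 and 14.9 CPM in their PBS animals. NC26 animals had 13.04, 12.7, 22.0 and 11.95 CPM and their PBS animals 13.1, 11.3, 11.3 and 11.2 CPM. The lowest C26 cachexia animal was far above the highest of the other 12, and the difference was 2.04 (SE 0.32, adjusted p = 3.6e-04, edgeR).

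Ntf3 (chromosome 6, 126101412 to 126166744), which encodes neurotrophin-3, had 174, 61.7, 182 and 113 CPM in C26 cachexia animals against 16.1, 14.0, 18.6 and 13.3 CPM in their PBS animals, and 27.8, 21.6, 23.7 and 28.6 CPM in NC26 animals against 14.5, 16.6, 20.5 and 19.2 CPM in theirs (difference 2.57, SE 0.35, adjusted p = 5.5e-05, edgeR). Animal 2 was the lowest of the C26 cachexia group and still above all others. Slc10a6 (chromosome 5, 103605711 to 103629403), a carrier of sulfated steroids, had 7.49, 8.64, 14.2 and 13.5 CPM in C26 cachexia animals and 0.244 to 0.900 CPM in the other 12, and its difference of 4.77 was the largest of the named genes of the set (SE 0.74, adjusted p = 3.6e-04, edgeR). Nt5e (chromosome 9, 88327609 to 88372089), the ecto-enzyme CD73 that makes adenosine, had 10.9, 13.9, 15.6 and 19.98 CPM in C26 cachexia animals and 2.43 to 6.16 CPM in the other 12 (difference 1.95, SE 0.40, adjusted p = 0.0047, edgeR).

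Ms4a8a, of the MS4A membrane protein family, stood at 5.36, 5.12, 10.0 and 14.5 CPM in C26 cachexia animals and at most 2.99 CPM in the others (difference 2.32, SE 0.57, adjusted p = 0.019, edgeR). Hif3a, of the hypoxia-inducible factor family, stood at 2.34, 6.07, 5.09 and 8.47 CPM against at most 1.62 CPM (difference 2.62, SE 0.69, adjusted p = 0.029, edgeR). Lppr5 differed in kind. Its C26 cachexia animals (1.82, 3.26, 2.84 and 2.95 CPM) overlapped their PBS animals (2.66, 1.01, 1.41 and 1.82 CPM), and its difference of 2.27 (SE 0.62, adjusted p = 0.035, edgeR) came with 1.05, 0.811, 1.51 and 1.18 CPM in NC26 animals against 4.21, 1.19, 5.41 and 3.60 CPM in theirs. Neither effect of Lppr5 passed alone (adjusted p = 0.31 and 0.077, edgeR).

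**Figure D2:**
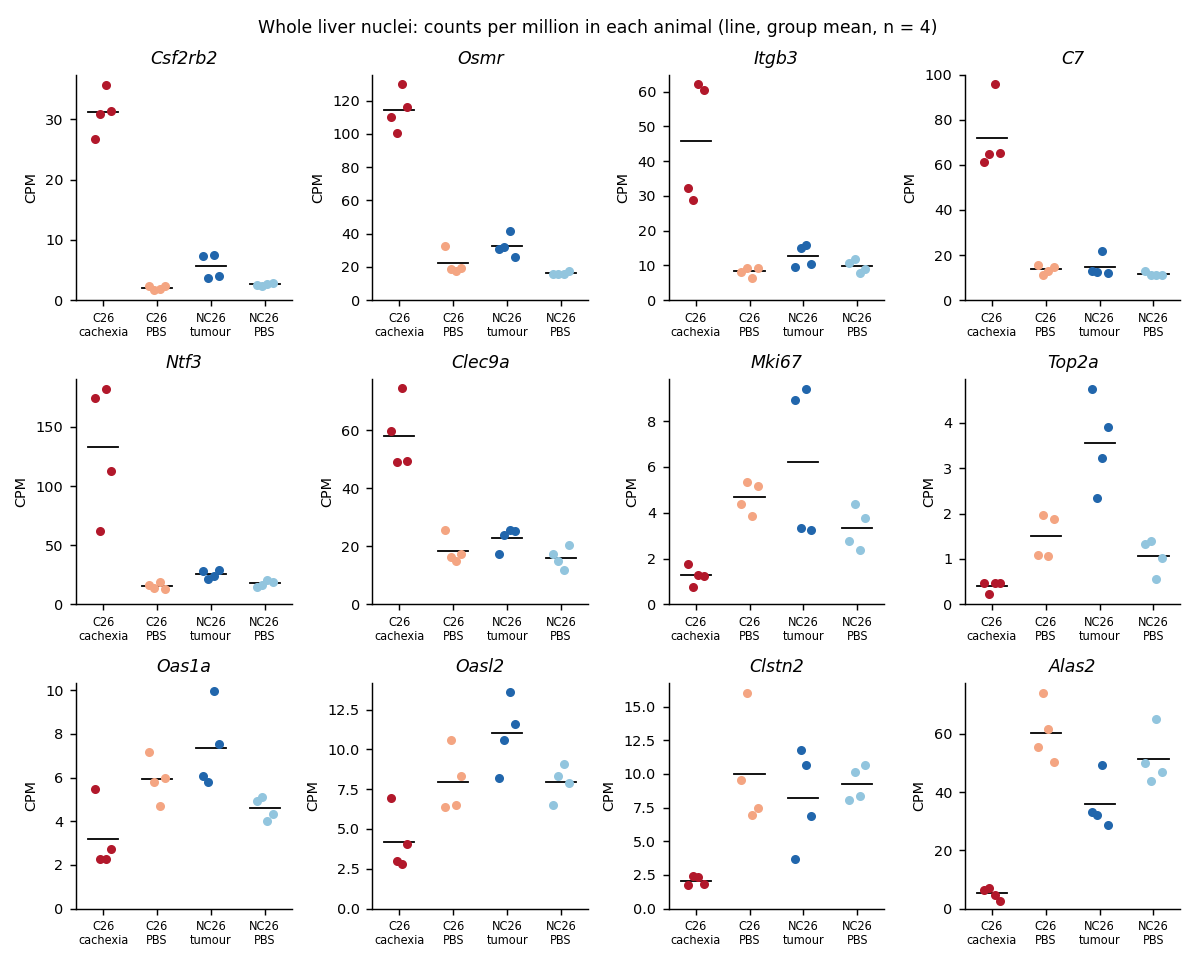
CPM in each of the 16 animals for 12 genes, with C26 cachexia animals in dark red, their PBS animals in orange, NC26 animals in dark blue and their PBS animals in light blue, and lines at group means. In Csf2rb2, Osmr, Itgb3, C7, Ntf3 and Clec9a the 4 C26 cachexia animals lie above all others, and in Mki67, Top2a, Clstn2 and Alas2 below all others.

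Cell division genes were lower. Of 27 tested cell cycle genes, 3 of them in the whole-liver-enriched set, 6 were called lower (Mki67, Top2a, Aurkb, Cenpe, Mcm6 and Tpx2) and none higher, against 1.73% and 1.67% of all genes tested. In this list 25 of 27 differences were negative, and the median was -1.38. In C26 cachexia 10 of the 27 fell (10.3% of all genes tested), and in NC26 animals 2 rose (0.706%). Mki67 (chromosome 7, 135689788 to 135716379), the Ki-67 antigen of dividing cells, had 1.77, 0.758, 1.30 and 1.244 CPM in C26 cachexia animals against 4.36, 5.33, 3.85 and 5.16 CPM in their PBS animals. NC26 animals had 8.92, 3.35, 9.41 and 3.24 CPM against 2.78, 4.36, 2.39 and 3.76 CPM in theirs. Thus all C26 cachexia animals were below every PBS animal, while 2 of the 4 NC26 animals were above and 2 within the PBS range (difference -2.79, SE 0.54, adjusted p = 0.0031, edgeR).

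Top2a (chromosome 11, 98992947 to 99024189), the topoisomerase that untangles replicated DNA, had 0.468, 0.227, 0.473 and 0.466 CPM in C26 cachexia animals against 1.08, 1.97, 1.07 and 1.88 CPM in their PBS animals. It had 4.74, 2.33, 3.23 and 3.91 CPM in NC26 animals against 1.32, 1.397, 0.566 and 1.02 CPM in theirs. It fell in C26 cachexia (log2 change -1.90, SE 0.45, adjusted p = 0.0021, edgeR) and rose in NC26 animals (1.68, SE 0.36, adjusted p = 0.016, edgeR), with no overlap in either, and the difference was -3.58 (SE 0.57, adjusted p = 4.4e-04, edgeR). Mcm6, a subunit of the replicative helicase, fell and rose in the same way (difference -3.05, SE 0.55, adjusted p = 0.0019, edgeR). It had 0.832, 1.10, 0.651 and 0.389 CPM in C26 cachexia animals and 3.95, 1.88, 2.37 and 10.3 CPM in NC26 animals.

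Kif4, a kinesin that binds chromosomes, stood at 1.09, 0.834, 1.06 and 1.09 CPM in C26 cachexia animals and at 1.74 to 4.17 CPM in the other 12 (difference -2.19, SE 0.56, adjusted p = 0.024, edgeR). Diap3, a formin of the actin ring of dividing cells, stood at 2.76, 1.29, 0.769 and 1.244 CPM in C26 cachexia animals, 3.53 to 6.83 CPM in their PBS animals, 5.27 to 15.6 CPM in NC26 animals and 4.46 to 6.00 CPM in theirs (difference -2.55, SE 0.65, adjusted p = 0.024, edgeR). The set's 52 lower genes also held the kinetochore and mitosis genes Kntc1, Ndc80, Ttk, Ncapg, Nusap1 and Cenpi, singled out after their values were seen, at differences of -6.32 to -2.46.

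Promoters of lower genes are shown for the motifs they hold, from RefSeq (GRCm38.p6, the mm10 sequence), as the 200 bases before the gene start on the gene's own strand. In Mki67 and Top2a the capitals mark TTTGAA, the core of the cell cycle gene homology region, searched on both strands. The motif was found in the 300 base window (250 before to 50 after the start) of 12 of the 23 cell cycle genes with a promoter, in 20 of the 43 lower and 4 of the 37 higher genes of the whole-liver-enriched set with one, and in 17.9% of 32851 promoters. A match describes letters and shows no binding. Mki67 lies at chr7:135716380-135716579 and Top2a at chr11:99024190-99024389, both on the minus strand.
Mki67: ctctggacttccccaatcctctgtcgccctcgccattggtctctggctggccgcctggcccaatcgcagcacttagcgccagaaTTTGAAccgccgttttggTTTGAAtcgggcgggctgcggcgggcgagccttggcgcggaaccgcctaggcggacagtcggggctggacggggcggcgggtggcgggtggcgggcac
Top2a: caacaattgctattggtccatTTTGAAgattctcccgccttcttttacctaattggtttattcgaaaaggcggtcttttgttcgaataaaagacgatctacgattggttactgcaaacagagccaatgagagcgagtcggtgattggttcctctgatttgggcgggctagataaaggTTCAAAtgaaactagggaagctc

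Interferon-induced genes formed a further group. Of 30 tested members, 10 of them in the whole-liver-enriched set, 3 were called lower (Oas1a, Oasl2 and Ifit2) and none higher, against 1.73% and 1.67% of all genes tested. In this list 28 differences were negative, and the median was -0.76. The C26 cachexia effect held 8 members that fell and 2 that rose (Usp18 and Iigp1), against 10.3% and 11.8% of all genes tested. The NC26 effect held 1 that rose (Mx2) and none that fell, against 0.706% and 0.0218% of all genes tested. Oas1a (chromosome 5, 120896257 to 120907525), a sensor of double-stranded RNA, had 5.46, 2.27, 2.25 and 2.72 CPM in C26 cachexia animals against 7.18, 5.81, 4.68 and 5.99 CPM in their PBS animals. It had 6.06, 5.78, 9.95 and 7.53 CPM in NC26 animals against 4.94, 5.11, 4.02 and 4.34 CPM in theirs. C26 cachexia animal 1 lay within the PBS range and the other 3 below it, while all NC26 animals lay above theirs (difference -1.56, SE 0.35, adjusted p = 0.01, edgeR).

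Oasl2, of the same family, had 6.97, 2.995, 2.78 and 4.04 CPM in C26 cachexia animals against 6.35, 10.6, 6.48 and 8.33 CPM in their PBS animals, and 8.21, 10.6, 13.6 and 11.6 CPM in NC26 animals against 6.51, 8.31, 9.05 and 7.91 CPM in theirs (difference -1.39, SE 0.31, adjusted p = 0.011, edgeR). Again animal 1 was the highest of the C26 cachexia group. Summed over the 30 members, it had 944 CPM against 599.6 to 655 CPM in the other 3, next to 585 to 730 CPM in C26 PBS animals, 799 to 1060 CPM in NC26 animals and 684 to 726 CPM in NC26 PBS animals. Ifit2, an antiviral protein that binds RNA, had a difference of -1.16 (SE 0.30, adjusted p = 0.024, edgeR), with 4.73, 3.91, 3.67 and 2.57 CPM in C26 cachexia animals and 5.93, 6.14, 6.63 and 5.72 CPM in NC26 animals. Tgtp2, an interferon-induced GTPase with a near-identical copy, had 2.18, 0.758, 0.828 and 1.09 CPM in C26 cachexia animals and 1.36 to 3.48 CPM in the other 12 (difference -1.71, SE 0.45, adjusted p = 0.028, edgeR), and Ifi27l2a a difference of -1.56 (SE 0.44, adjusted p = 0.042, edgeR).

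In the promoters of Oas1a and Tgtp2 the capitals mark GAAA, any 2 bases and GAAA, the core of the interferon-stimulated response element, searched on both strands of the same windows and overlapping itself in Oas1a. It was found in 16 of the 23 interferon-induced genes with a promoter, in 8 of 43 lower and 1 of 37 higher genes of the whole-liver-enriched set, and in 3.44% of all promoters. Oas1a lies at chr5:120907526-120907725 and Tgtp2 at chr11:49064213-49064412, both on the minus strand.
Oas1a: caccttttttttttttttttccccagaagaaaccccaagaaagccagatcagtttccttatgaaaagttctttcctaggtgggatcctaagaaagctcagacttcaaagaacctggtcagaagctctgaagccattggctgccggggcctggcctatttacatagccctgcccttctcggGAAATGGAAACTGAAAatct
Tgtp2: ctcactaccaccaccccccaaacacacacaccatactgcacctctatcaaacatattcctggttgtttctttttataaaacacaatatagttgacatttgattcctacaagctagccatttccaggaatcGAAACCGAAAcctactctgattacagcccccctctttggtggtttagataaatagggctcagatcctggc

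Pre-cachexia C26 animals, a further group of 4 from the C26 cohort, give the levels of these genes at the stage labelled pre-cachexia. They are set against the same PBS animals as the cachexia group, so the 2 stages are not independent. Of the 30 interferon-induced genes, 18 rose in pre-cachexia animals and none fell (8.72% and 4.04% of all genes tested), with a median log2 change of 0.89, against -0.33 in cachexia. Oas1a stood at 10.3, 8.67, 7.68 and 8.23 CPM and Oasl2 at 15.9, 14.5, 10.3 and 18.4 CPM, above every C26 cachexia animal. For Oas1a all 4 also lay above every C26 PBS animal, and for Oasl2 animal 3 lay within the PBS range. For the cell cycle list the median was 0.71 in pre-cachexia animals and -0.74 in cachexia animals. Before cachexia 3 of its 27 genes rose, near the 8.72% of all genes tested. Mki67 stood at 8.53, 12.8, 5.19 and 11.7 CPM and Top2a at 4.49, 6.77, 3.27 and 5.51 CPM before cachexia. Of the 51 higher genes of the whole-liver-enriched set, 29 already rose in pre-cachexia animals and none fell. Their median log2 change was 0.68 there, against 1.62 in cachexia. Of the 52 lower genes, 12 rose and 4 fell before cachexia (median 0.33). In the whole set 26.5% of genes rose and 0.745% fell at that stage.

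Antigen presentation genes were also higher before cachexia. Of 9 tested MHC class II genes, 6 rose in pre-cachexia animals (median 1.33), while in cachexia 1 of the 9 fell (Cd74), near the 10.3% of all genes tested, and the median was -0.54. The difference between C26 cachexia and NC26 effects called none of the 9 (4 at an unadjusted p under 0.05, median -0.83). Cd74, the chaperone of class II molecules, had the smallest p, with 13.3 to 18.1 CPM in C26 PBS animals, 31.8, 50.4, 22.5 and 35.0 CPM in pre-cachexia animals and 15.7, 6.67, 9.17 and 6.84 CPM in cachexia animals. It had 9.53, 17.5, 11.95 and 19.9 CPM in NC26 animals and 6.51 to 13.9 CPM in theirs (difference -1.26, SE 0.38, adjusted p = 0.06, edgeR). Of 12 MHC class I genes 10 rose before cachexia and 1 in cachexia, and the difference of effects called none (2 at an unadjusted p under 0.05, median -0.33). Markers of most immune cells were higher before cachexia too, when 8.72% of all genes tested rose and 4.04% fell. Of 19 Kupffer cell and macrophage markers 11 rose (median 0.94), as did 7 of 14 monocyte (0.97), 6 of 10 dendritic cell (1.06), 5 of 15 T cell (0.77) and 3 of 7 NK cell markers (1.28). The 1 of 15 B and plasma cell markers that rose (median 0.58) was near the share over all genes. None of these immune cell markers fell. Of 12 hepatocyte markers 4 fell (median -0.45). The part of these cells in the values of the MHC, interferon-induced and cell cycle genes was not tested.

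**Figure D3:**
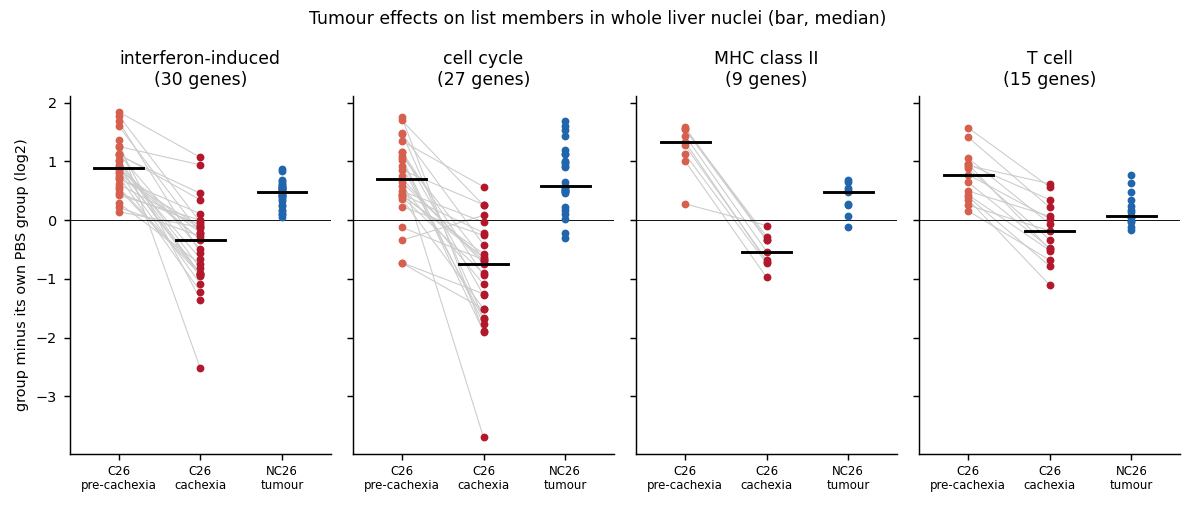
Log2 change of each tested list member against PBS animals of the same cohort, for C26 pre-cachexia, C26 cachexia and NC26 animals, with bars at medians and lines joining the 2 C26 stages, which share their PBS animals. Medians of interferon-induced genes were 0.89, -0.33 and 0.47, and of cell cycle genes 0.71, -0.74 and 0.59.

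Marker lists of the cells themselves held few calls. Of 22 endothelial markers none was called (2 at an unadjusted p under 0.05, edgeR), and the median difference was -0.01. Stab2, a hyaluronan scavenger receptor, had 789, 734, 744 and 687 CPM in C26 cachexia animals against 562, 521, 522 and 486 CPM in their PBS animals, and 577, 649.5, 606 and 568 CPM in NC26 animals against 508, 521, 587 and 556 CPM in theirs. It rose in C26 cachexia (log2 change 0.50, SE 0.11, adjusted p = 0.0012, edgeR), and its difference was 0.35 (SE 0.15, adjusted p = 0.24, edgeR). Dnase1l3, a secreted nuclease of these cells, fell in C26 cachexia (-0.89, SE 0.16, adjusted p = 1.5e-04, edgeR), with 48.6, 37.1, 39.7 and 32.9 CPM against 78.1, 69.5, 71.3 and 75.2 CPM. Of 16 endothelial activation and adhesion genes none was called either (3 unadjusted). Selp, the platelet and endothelial selectin, came nearest with 5.93, 5.04, 10.9 and 5.13 CPM in C26 cachexia animals and 1.57 to 3.62 CPM in the other 12 (difference 1.42, SE 0.41, adjusted p = 0.0503, edgeR).

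Of 19 Kupffer cell and macrophage markers none was called in the difference (2 unadjusted, edgeR), with a median of -0.08. Of these markers 7 rose in C26 cachexia and 3 in NC26 animals (11.8% and 0.706% of all genes tested), with list medians of 0.46 and 0.64. Their summed level was 917 to 1209 CPM in C26 cachexia animals against 702 to 866 CPM in their PBS animals, and 796 to 940 CPM in NC26 animals against 636 to 789 CPM in theirs. Timd4, a phosphatidylserine receptor of resident Kupffer cells, rose in NC26 animals (log2 change 0.81, SE 0.20, adjusted p = 0.045, edgeR), with 29.0, 24.9, 33.6 and 25.8 CPM against 17.3, 16.2, 14.7 and 16.5 CPM. In C26 cachexia animals it had 33.0, 17.7, 23.2 and 17.2 CPM against 25.7, 22.3, 19.5 and 18.8 CPM, with overlap, and the difference was -0.73 (SE 0.28, adjusted p = 0.16, edgeR).

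Among 14 tested monocyte markers Cd9, a tetraspanin, was called higher, with 16.6, 12.5, 11.8 and 28.8 CPM in C26 cachexia animals and 3.31 to 6.22 CPM in the other 12 (difference 1.72, SE 0.44, adjusted p = 0.026, edgeR). Cd9 was also called in hepatocyte nuclei (2.12, SE 0.51, adjusted p = 0.025, edgeR). The median of the list was 0.49. Of 11 tested neutrophil markers none was called (3 unadjusted), though 7 rose in C26 cachexia (11.8% of all genes tested) and 10 of 11 differences were positive (median 0.56). Their summed level was 19.2 to 25.4 CPM in C26 cachexia animals against 6.63 to 8.87 CPM in their PBS animals, and 10.6 to 14.0 CPM in NC26 animals against 6.79 to 10.2 CPM in theirs. Ly6g, Camp, Ltf, Ngp and Retnlg, defining genes of neutrophils and their precursors, had too few counts to be tested.

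Among 10 dendritic cell markers 1 was called in each direction. Clec9a (chromosome 6, 129408862 to 129424764), a receptor for dead cells on type 1 dendritic cells, had 59.8, 49.0, 74.6 and 49.3 CPM in C26 cachexia animals against 25.6, 16.2, 14.8 and 17.3 CPM in their PBS animals, and 17.5, 23.7, 25.5 and 25.1 CPM in NC26 animals against 17.2, 14.8, 11.8 and 20.3 CPM in theirs. C26 cachexia animals were above all others, and the difference was 1.14 (SE 0.31, adjusted p = 0.035, edgeR). Zbtb46, a factor of the same lineage, had a difference of -0.20 (SE 0.15, adjusted p = 0.55, edgeR). Ccr9, a chemokine receptor of plasmacytoid cells, fell to 0.260, 0.227, 0.118 and 0.233 CPM in C26 cachexia animals, against 0.623, 0.800, 0.731 and 0.469 CPM in their PBS animals (difference -2.07, SE 0.59, adjusted p = 0.046, edgeR), levels near the limit of what was tested.

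Lymphocyte markers had negative medians without a call. The medians were -0.39 over 15 T cell markers (2 unadjusted), -0.23 over 7 NK cell markers (0 unadjusted) and -0.80 over 15 B and plasma cell markers (4 unadjusted, edgeR), of which 14 were negative. Cholangiocyte markers (11 of 13 negative, median -0.29) and mesothelial markers (4 of 5 negative, median -1.06) held no call either (2 and 1 unadjusted), while the median of hepatocyte markers lay on the other side of 0, at 0.59. Between the PBS groups, 3 cholangiocyte and 2 mesothelial markers differed, all higher in C26 PBS animals (5.46% of all genes tested). The list medians of C26 PBS minus NC26 PBS were 0.48 and 1.19, so both negative medians hold the cohorts' starting levels. Cd247, the zeta chain of the T cell receptor complex, had 3.22, 1.59, 2.01 and 2.25 CPM in C26 cachexia animals against 4.15, 4.59, 3.41 and 3.40 CPM in their PBS animals, and 4.48, 5.93, 5.40 and 4.88 CPM in NC26 animals against 3.79, 3.17, 4.65 and 6.03 CPM in theirs (difference -1.02, SE 0.34, adjusted p = 0.1, edgeR). It fell in C26 cachexia without overlap (adjusted p = 0.023, edgeR). Bank1, a B cell scaffold protein, had 116, 56.8, 62.2 and 45.6 CPM in C26 cachexia animals against 103, 88.3, 71.2 and 80.2 CPM in their PBS animals, where again animal 1 stood above the other 3 (difference -0.80, SE 0.31, adjusted p = 0.16, edgeR).

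Stellate cell and matrix genes held 1 call between them. None of 19 stellate cell and fibroblast markers was called (4 unadjusted, edgeR, median -0.33). The 8 that differed between the PBS groups were all higher in C26 PBS animals (5.46% of all genes tested). Of 30 matrix genes, the 9 that differed between the PBS groups were also all higher in C26 PBS animals. Fn1, the fibronectin gene, was the only one called of 30 matrix genes (median -0.30), with 2923, 1972, 3239.7 and 3474 CPM in C26 cachexia animals against 719, 760.2, 937 and 913 CPM in their PBS animals, and 1934, 1127, 1677 and 1456 CPM in NC26 animals against 1054, 833, 1289 and 1039.8 CPM in theirs (difference 1.25, SE 0.29, adjusted p = 0.013, edgeR). Fn1 is not in the whole-liver-enriched set. Of 22 TGF-beta and BMP genes Tgfbr3, the co-receptor betaglycan, was called higher (0.78, SE 0.22, adjusted p = 0.043, edgeR), with 133, 115, 140 and 125 CPM in C26 cachexia animals and 79.7, 90.9, 85.7 and 80.4 CPM in NC26 animals. Clstn2, a calsyntenin of the cadherin superfamily, was among the lowest of the set, at 1.77, 2.39, 2.37 and 1.79 CPM in C26 cachexia animals and 3.65 to 16.1 CPM in the other 12 (difference -2.08, SE 0.46, adjusted p = 0.0091, edgeR). Nes, the intermediate filament nestin, fell to 0.936, 0.607, 0.887 and 0.700 CPM in C26 cachexia animals against 5.81, 4.96, 4.29 and 7.86 CPM in their PBS animals, which themselves were above NC26 PBS animals (2.401, 2.62, 2.26 and 3.01 CPM; adjusted p = 0.044, edgeR). NC26 animals had 1.19, 2.69, 1.31 and 1.47 CPM (difference -2.23, SE 0.58, adjusted p = 0.027, edgeR).

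**Figure D4:**
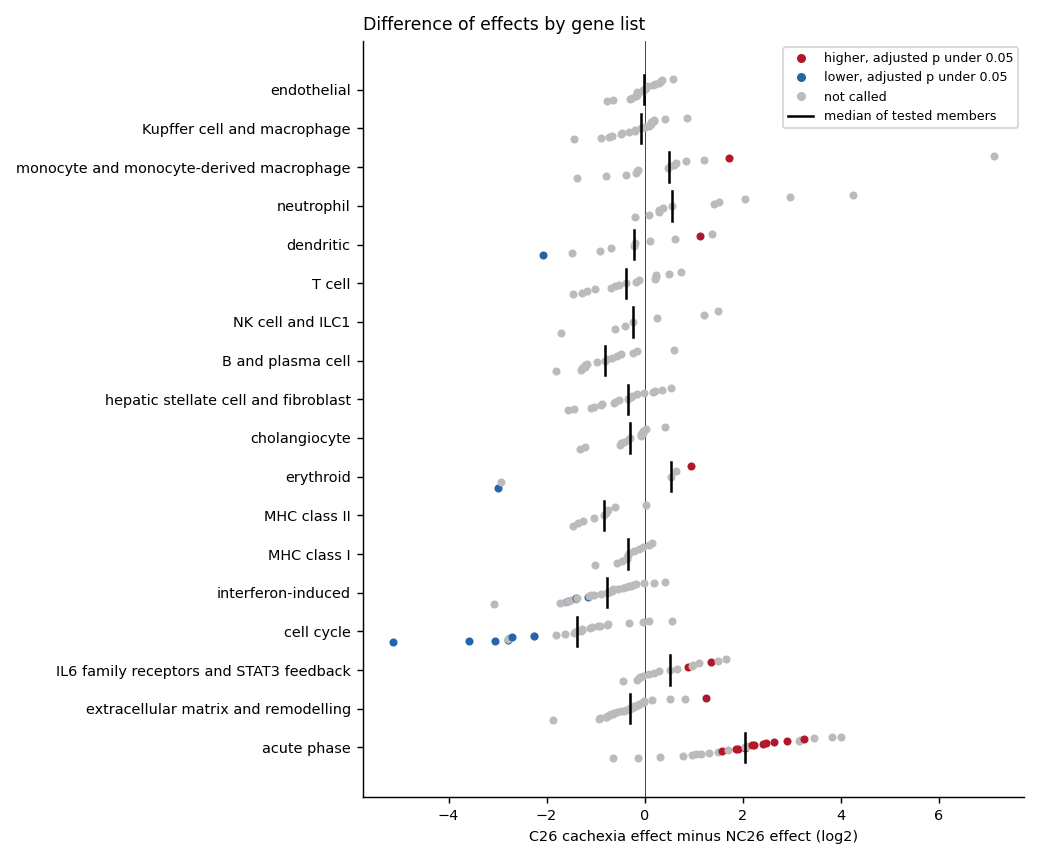
Each point is a tested gene of a list, at its C26 cachexia effect minus NC26 effect on the log2 scale, in red or blue where called and grey where not, with a bar at the list's median. Medians ran from -1.38 for cell cycle genes to 2.05 for acute phase genes, and the endothelial list centred on -0.01.

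Called genes of iron and haem handling lay in both directions. Alas2 (chromosome X, 150547417 to 150570622), the erythroid enzyme that starts haem synthesis, had 6.29, 6.94, 4.73 and 2.72 CPM in C26 cachexia animals against 55.4, 74.0, 61.8 and 50.5 CPM in their PBS animals, and 33.1, 32.3, 49.2 and 28.7 CPM in NC26 animals against 50.0, 43.8, 65.0 and 46.9 CPM in theirs. The difference was -2.999 (SE 0.36, adjusted p = 1.8e-05, edgeR), and 10 of the 15 erythroid list genes, the globin genes among them, were not tested. Alas2 is not in the whole-liver-enriched set (log2 whole liver minus hepatocyte nuclei -0.18), and its difference in hepatocyte nuclei was -3.25 (SE 0.42, adjusted p = 7.5e-05, edgeR). Tfrc, the transferrin receptor, rose in C26 cachexia, to 49.7, 76.2, 49.8 and 93.8 CPM against 36.7, 45.9, 47.5 and 33.5 CPM in PBS animals (difference 0.94, SE 0.24, adjusted p = 0.026, edgeR). Slc39a14, a zinc and iron importer, had 1265, 1066, 1221 and 1387 CPM in C26 cachexia animals and 683, 784, 872 and 500.5 CPM in NC26 animals (difference 1.33, SE 0.28, adjusted p = 0.0059, edgeR).

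Genes outside the whole-liver-enriched set also held large differences. Among called genes averaging 5 CPM or more, the highest included Atp6v0a4, a proton pump subunit, and Igfbp1, a binder of insulin-like growth factors (differences 5.44 and 5.11, adjusted p = 0.0012 and 0.0055, edgeR). Atp6v0a4 leaned to whole liver (log2 whole liver minus hepatocyte nuclei 1.08), and Igfbp1 did not (-0.20). The 3 lowest were Mup21, a major urinary protein, Car3, a carbonic anhydrase, and Slco1a1, an organic anion carrier (-4.98, -4.84 and -4.67, adjusted p = 5.5e-05, 0.0017 and 3.2e-04, edgeR). Mup21 belongs to a family of near-identical genes, so the copy is uncertain. Of 28 acute phase genes 11 were called higher and none lower (median 2.05), and of 23 growth hormone axis genes 2 higher and 5 lower (median -0.45). Over all genes tested the shares were 1.67% higher and 1.73% lower. None of 12 hepatocyte markers was called (3 unadjusted, edgeR), though 11 differences were positive (median 0.59).

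Of 37 called genes described one by one above, Itga8 not among them, 22 remained called without any 1 of the 16 animals. In the whole-liver-enriched set these were Csf2rb2, Osmr, Itgb3, C7, Ntf3, Slc10a6, Nt5e, Mki67, Top2a, Oas1a, Oasl2 and Clstn2. Outside the set they were Il4ra, Fn1, Slc39a14, Mcm6, Alas2, Atp6v0a4, Igfbp1, Mup21, Car3 and Slco1a1. The other 15 missed the threshold without some animal. Kif4, Ifit2 and Ms4a8a did so without 2 animals each, Cd9, Diap3 and Nes without 5, Hif3a without 6 and Tfrc without 7, with adjusted p of up to 0.092 (edgeR). Clec9a and Tgtp2 missed it without 8 animals, Itga2 without 9, Ifi27l2a without 11, Lppr5 without 12, Tgfbr3 without 13 and Ccr9 without 15, with adjusted p of up to 0.11 (edgeR). Without C26 cachexia animal 1, Cd74, Cd247 and Bank1 passed it (adjusted p = 0.014, 0.049 and 0.015, edgeR). Cd74 also passed it without NC26 PBS animal 4, without NC26 animal 1 and by DESeq2. Selp passed it without C26 cachexia animal 1 or 2 or NC26 animal 4, by DESeq2, with its size factors, with genes under an average of 1 CPM left out, and in the 4 BALB/c groups alone (adjusted p of 0.019 to 0.049, edgeR and DESeq2).

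The same animals' hepatocyte nuclei gave a further measurement. There the difference of effects called 124 genes higher (0.934%) and 127 lower (0.957%) of 13274, or 1.89% in all. These counts were 68 and 69 without NC26 PBS animal 1, and 224 and 255 without C26 PBS animal 1. Of the whole-liver-enriched set, 12 of the 51 higher and 6 of the 52 lower genes were called the same way in hepatocyte nuclei and none the opposite way. By sign alone, all 51 higher and 50 of the 52 lower genes went the same way there. The genes were called in whole liver of these same animals, so the shared signs are not an independent test. Over the set, 1.09% of genes were called in hepatocyte nuclei. The set's median difference was 0.14 in hepatocyte nuclei and -0.14 in whole liver. Among 27 cell cycle genes, 4 were called lower in hepatocyte nuclei and none higher, with a median of -1.81. Called in both were Mki67 and Top2a (hepatocyte nuclei -3.86, SE 0.98, adjusted p = 0.032, and -5.10, SE 1.02, adjusted p = 0.0075, edgeR), and Osmr, C7, Ntf3, Nt5e, Slc10a6 and Hif3a. Tested directly in a fit of both fractions with the animal as a block, the difference of effects differed between whole liver and hepatocyte nuclei in 0 of 14054 genes (0%; 675 at an unadjusted p under 0.05, edgeR). For Osmr, whose difference of effects was 2.57 in hepatocyte nuclei (SE 0.53, adjusted p = 0.0078, edgeR), the whole liver minus hepatocyte value was -1.17 (SE 0.33, adjusted p = 0.64, edgeR).

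Mice of another strain gave a comparison that shares no animal: 8025 tumours, which induce cachexia in C57BL/6N mice, against MC38 tumours, which do not, each against its own PBS animals. Of the 51 higher genes of the set, 32 (62.7%) were called higher in that contrast as well and none lower, which is 6.52% of the 491 set genes called higher there (22.9% of the set, 7.58% of all genes tested). The PBS animals of that contrast are those whose fractions defined the set. Of the 52 lower genes, 10 (19.2%) were called lower and 2 higher (Adgrd1 and Adgrl3), the 10 being 11.2% of the 89 set genes called lower there (4.15% of the set, 5.96% of all genes tested). Csf2rb2 (2.65, SE 0.36), Ntf3 (3.63, SE 0.35), Osmr (2.51, SE 0.31) and Itgb3 (1.70, SE 0.40) were higher in both strains (adjusted p = 1.8e-05, 1.7e-07, 3.3e-06 and 0.0048, edgeR). Of the lower genes, Clstn2 (-1.89, SE 0.44, adjusted p = 0.0043) and Tgtp2 (-2.08, SE 0.47, adjusted p = 0.0035) were lower in both (edgeR). Mki67 (0.86, SE 0.50, adjusted p = 0.26), Top2a (0.82, SE 0.49, adjusted p = 0.27), Oas1a (0.06, SE 0.36, adjusted p = 0.94) and Oasl2 (0.39, SE 0.31, adjusted p = 0.44) were not called in C57BL/6N mice (edgeR). Of the 27 cell cycle genes 1 was called higher there and none lower, and of the 30 interferon-induced genes 3 lower and none higher. Whether the strains differ in these genes was not tested.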

How the data were processed

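The authors deposited raw counts per gene, with introns included per the file headers, for 72 libraries. STAR 2.4.2a, DESeq2 1.24.0 and mm10 are named in the submitters' processing notes. Total RNA of nuclei was sequenced from a stranded kit without poly-A selection, per the labels' protocols. Supernatant nuclei were not analysed here. Total counts per library set the precision, and they ran from 13752533 to 29858116 in the 16 libraries compared.

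From the deposited counts, edgeR 4.0.16 (R 4.3.3) fitted 9 groups of 36 whole liver libraries, with TMM scaling, filterByExpr and the quasi-likelihood F test, adjusted by Benjamini-Hochberg over all 13738 genes tested. Each contrast was taken from this common fit, and SEs were computed from the F statistic. Hepatocyte nuclei were fitted in the same way, and both fractions together with the animal as a block. Animals carry separate identifiers. Named genes were the 10 highest and 10 lowest called genes of the whole-liver-enriched set with a mean of at least 2 CPM, the 3 highest and 3 lowest of all called genes with at least 5 CPM, the up to 3 called members of each list with the smallest p or the nearest one not called, and the 2 most abundant cell type markers. Csf2rb, Itga8 and the 6 kinetochore and mitosis genes fall outside this rule and were chosen after their values were seen. A gene the rule names is not reported here. Members and lists were chosen with earlier results of these data known. Alternatives were DESeq2, its size factors, library sizes without 5 rRNA-like genes, other filters, BALB/c groups alone, a replicate block and leaving out each animal. The C26 pre-cachexia, PBS against PBS and C57BL/6N comparisons were added after seeing the data.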

Additional observations from a re-analysis of the deposited data

Results flagged for a closer look

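The 230 genes higher and 237 lower in the difference of effects are those in which the C26 cachexia and NC26 effects differed by the test of the difference itself. Among 192 combinations of a described gene and a group of 4 animals, 17 (8.85%) held an animal far from the other 3, where chance flags about 1 in 20.

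In C26 cachexia animals, animal 1 stood above the others in Oas1a (5.46 CPM against 2.25 to 2.72) and Slco1a1 (84.9 CPM against 13.6 to 24.0). Animal 3 stood above them in C7 (95.9 CPM against 61.4 to 65.3) and Selp (10.9 CPM against 5.04 to 5.93). Animal 2 stood below them in Top2a (0.227 CPM against 0.466 to 0.473) and Kif4 (0.834 CPM against 1.06 to 1.09). In C26 PBS animals, animal 1, whose library stands apart, was high in Mrc1 (251 CPM against 169 to 177) and Osmr (32.5 CPM against 17.4 to 19.5).

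In NC26 animals, animal 3 was high in C7 (22.0 CPM against 11.95 to 13.04) and Ms4a8a (2.99 CPM against 1.41 to 1.64), and animal 4 in Car3 (909 CPM against 314 to 383) and Il4ra (49.9 CPM against 36.9 to 39.0). In NC26 PBS animals, animal 1 was high in C7 (13.1 CPM against 11.2 to 11.3) and animal 3 in Mup21 (150.1 CPM against 90.8 to 98.0). Animal 4 was high there in Kif4 (2.66 CPM against 1.74 to 1.89), Mrc1 (157 CPM against 130.1 to 134) and Osmr (17.7 CPM against 15.5 to 15.9).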

How the results depend on the processing

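DESeq2 called 349 genes higher in the difference of effects, 177 higher and 22 lower in the NC26 effect, 234 higher and 272 lower in hepatocyte nuclei, and 16 higher and 1 lower between the fractions. Fitting only the 4 BALB/c groups gave 419 genes higher in the difference of effects, 79 of them whole-liver-enriched, 12 lower in the NC26 effect and 206 lower in hepatocyte nuclei. A set of at least 4-fold enrichment held 33 higher and 31 lower genes. The cause of these shifts was not tested. The other scalings and filters kept every count within 1.5 times.

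The replicate block gave 153 genes higher and 151 lower in the difference of effects, 31 lower whole-liver-enriched genes, 47 higher genes in the NC26 effect and 84 lower in hepatocyte nuclei. Same-numbered animals share only a number: their deviations correlated at -0.093 to 0.149 over 8 pairs, 2 of them over 0.1. Under the block, Ccr9, Ifi27l2a, Ifit2, Itga2, Ms4a8a, Tfrc and Tgfbr3 missed the threshold. Leaving out the animal block left the fraction counts at 0.

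Leaving out each animal in turn gave 134 to 284 genes higher and 117 to 259 lower in the difference of effects, of which 32 to 55 and 23 to 76 were whole-liver-enriched. It gave 1345 to 1651 higher and 1037 to 1454 lower in the C26 cachexia effect, 24 to 129 higher and 0 to 7 lower in the NC26 effect (fewest without NC26 PBS animal 1), 68 to 224 higher and 69 to 255 lower in hepatocyte nuclei, and 0 to 2 higher and 0 to 1 lower between the fractions. Genes called the same way in the C57BL/6N pair numbered 31 to 45, against 42 with all animals. Itga2b, never called, ran from -0.0129 (without C26 PBS animal 3) to 0.2461 (without NC26 PBS animal 4), against 0.14 with all animals. No other described gene changed sign. With 4 animals a group, genes of few counts such as Ccr9 were at the limit of what could be tested.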
